A study of Mus musculus with 24 samples.

Results

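Sphingosine-1-phosphate (S1P) given to the basal side of a brain endothelial layer, which the submitters class as opening the barrier, was compared with the 3 treatments that they class as tightening it. The tightening treatments were S1P on the apical side and the S1P4 receptor agonist CYM50260 on the apical or on the basal side. The comparison was set by the labels, not by measured values, and used 16 of the 24 libraries of the series: 4 with S1P basal and 12 with a tightening treatment, in 3 groups of 4. The difference reported is the S1P basal mean minus the mean of the 3 group means.

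The cells were primary mouse brain microvascular endothelial cells from C57B/6J wild-type mice, taken from microvessels of the cortex and midbrain and grown for 48 h with puromycin, which kills most other vascular cells. They were seeded on transwell inserts, whose upper chamber faces the apical (blood) side and whose lower chamber faces the basal (tissue) side, and were treated 48 h later for 24 h. S1P was used at 50 nM and the agonist at 500 nM, so that the S1P and the agonist groups differ in compound and in dose. A group of 4 vehicle libraries of the same cells, whose side of application the labels do not give, served as a second point of comparison. Each library came from 3 inserts, and each replicate from pooled cells of 12 mice. The 4 knockout libraries were not used.

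S1P is a lipid that blood carries at a high level and that endothelial cells sense through G protein-coupled receptors. S1P1 acts through Gi and strengthens junctions, whereas S1P2 is known for loosening them. Brain endothelium is polarized, so the same ligand can meet different receptors at each face, and its barrier rests on tight junctions, low vesicular transport and efflux pumps.

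The libraries held 4.49 to 4.72 M normalized counts (gene counts that the authors had scaled by library), with 1009 to 1952 of 18091 genes at 0, and 12249 genes whose mean over the 20 wild-type libraries reached 10 entered the test. Because the labels do not link a library to its own pool of mice, p-values here reflect the spread among these libraries, which may be technical. The test fitted treatment groups only, so this spread includes the differences between replicate numbers given below. The endothelial gene Cdh5 ranged from 2658 to 3191 normalized counts with S1P basal and from 2707 to 3254 in the tightening libraries, and Cldn5 from 799 to 970 and from 802 to 1028. Of the variance 43.6% lay on the leading principal component, where replicate number explained 83.9% of the scores and treatment group 5.95%. Treatment group explained 83.1% of the scores on the fourth component, which held 3.84% of the variance. The female-specific RNA Xist did not follow the replicate number everywhere. It was at 0 or 1 in all 5 libraries numbered 1. It was at 552 in S1P basal replicate 2 and 1382 in agonist apical replicate 2, against 2251 to 2555 in the other libraries numbered 2. It was at 525 in S1P apical replicate 3, against 1063 to 1608 in the others numbered 3, and at 1417 in S1P apical replicate 4, against 173 to 244. Counts of called genes without these 4 libraries stand beside those of the full fit where they differ.

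With S1P basal 6 genes fell below the tightening treatments and 0 rose (limma by treatment group alone, adjusted p under 0.05 over all genes). Atoh8 and Casz1 encode transcription factors, Cpm, Ackr4 and Trpm6 proteins of the cell surface, and Nuak1 a kinase. The 6 genes are 0.049% of those tested. At an unadjusted p under 0.05 there were 690 genes (5.63%), of which 384 were lower (3.13%) and 306 higher (2.5%). Without S1P basal replicate 1 the test called 3 genes lower, Atoh8, Cpm and Ackr4. Without the 4 libraries unlike their number it called these 3 and Bmp6 lower and Adamts4 higher. With replicate number added to the fit, more genes were called in both directions, as given in the closing section. All 6 genes called by treatment group alone had their lowest group mean with S1P basal. In all 6 the 4 vehicle libraries also lay above the highest S1P basal library. The choice of genes called lower favours both results, and their share over all genes was not counted. The RNA is from bulk cultures, in which fewer cells of a type and less RNA per cell cannot be told apart.

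**Figure D1:**
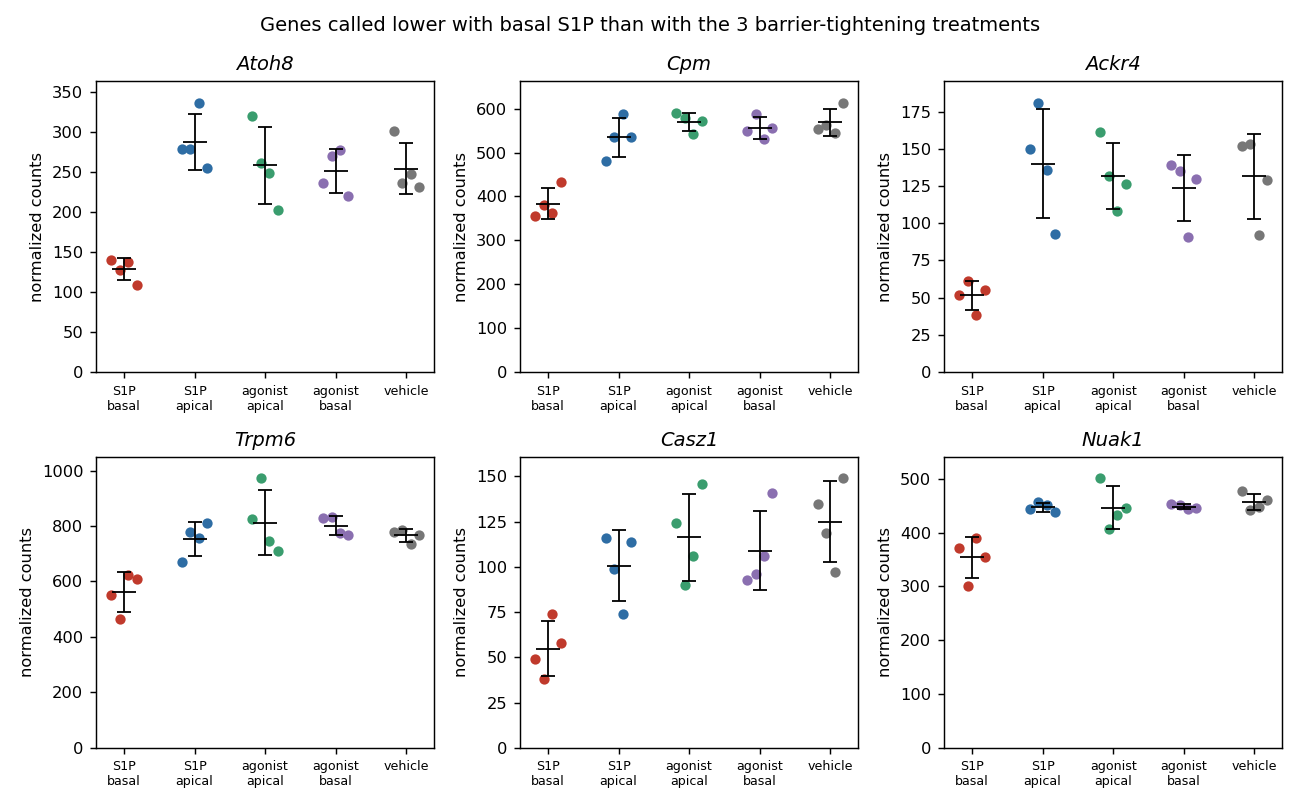
Normalized counts (vertical axes, from 0) of the 6 called genes by treatment group; points are libraries, with the mean and SD of each group of 4 drawn as a dash and error bars. For Atoh8 the S1P basal libraries sit between 109 and 140, below all others, and for Casz1 the highest S1P basal library reaches 74, the lowest tightening value.

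Atoh8 (ENSMUSG00000037621, chromosome 6 from 72206177 to 72235577 on the minus strand, mm10) encodes a basic helix-loop-helix factor known as a target of bone morphogenetic protein (BMP) signalling in endothelium. It stood at 140, 128, 137 and 109 normalized counts in S1P basal replicates 1 to 4. It stood at 279, 279, 337 and 255 with S1P apical, at 320, 262, 249 and 203 with agonist apical and at 237, 270, 278 and 220 with agonist basal. The S1P basal libraries lay below all 12 tightening libraries, with no overlap. The mean was 129 ± 14.0 with S1P basal (SD, n = 4) and 266 ± 37.9 in the tightening libraries (SD, n = 12), a log2 difference of -1.04 ± 0.11 (SE; limma adjusted p = 0.000132). The vehicle libraries, at 301, 236, 248 and 232, lay within the tightening range.

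Cpm (ENSMUSG00000020183, chromosome 10 from 117629500 to 117687352 on the plus strand) encodes carboxypeptidase M, an enzyme bound to the outer membrane that removes a C-terminal arginine or lysine from peptides such as kinins. It was at 356, 381, 363 and 434 normalized counts with S1P basal. The values were 480, 536, 587 and 535 with S1P apical, 590, 578, 542 and 572 with agonist apical and 550, 589, 530 and 557 with agonist basal. Again the groups did not overlap, the nearest values being 434 with S1P basal and 480 with S1P apical. The mean was 384 ± 35.3 with S1P basal (SD, n = 4) and 554 ± 32.2 in the tightening libraries (SD, n = 12), a log2 difference of -0.53 ± 0.06 (SE; limma adjusted p = 0.000132). Vehicle libraries were at 554, 562, 545 and 614.

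Ackr4 (ENSMUSG00000079355, chromosome 9 from 104084157 to 104126933 on the minus strand) encodes an atypical chemokine receptor, which takes up CCL19, CCL21 and CCL25 without signalling through G proteins. It was at 52, 61, 38 and 55 normalized counts with S1P basal. The values were 150, 181, 136 and 93 with S1P apical, 161, 132, 108 and 126 with agonist apical and 139, 135, 91 and 130 with agonist basal. The highest S1P basal library lay below the lowest tightening library. The mean was 51.5 ± 9.75 with S1P basal (SD, n = 4) and 132 ± 26.0 in the tightening libraries (SD, n = 12). The log2 difference of -1.33 ± 0.17 (SE; limma adjusted p = 0.00134) was the largest in size of the 6. Vehicle libraries were at 152, 153, 92 and 129.

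Atoh8, Cpm and Ackr4 also fell against each tightening group taken alone, where these 3 genes were the only ones called in each comparison (0.0245% of genes tested, and 0 higher). Atoh8 differed by -1.15, -0.99 and -0.96 on the log2 scale from S1P apical, agonist apical and agonist basal (SE 0.13 each; limma adjusted p = 0.00057, 0.00269 and 0.00408). Cpm differed by -0.48, -0.58 and -0.54 (SE 0.07 each; limma adjusted p = 0.0106, 0.00167 and 0.00408). Ackr4 differed by -1.41, -1.34 and -1.25 (SE 0.21 each; limma adjusted p = 0.0106, 0.0192 and 0.0484). These comparisons share the 4 S1P basal libraries. The calls of Atoh8 held when any 1 of the 20 libraries was left out. Cpm lost its call against S1P apical in 4 of these 20 fits. Ackr4 lost its call in 5 against S1P apical, in 5 against agonist apical and in 16 against agonist basal. Against S1P apical 1 gene, Atoh8, was left without S1P basal replicate 1 or 3 or S1P apical replicate 2 or 3, and 0 without the 4 libraries unlike their number. Without those 4, Cpm and Bmp6 were called against agonist apical, where Atoh8 and Ackr4 lost their calls, and Bmp6 joined the 3 genes against agonist basal. With only the libraries of the compared groups in the fit, Atoh8 alone was called against S1P apical, and 0 genes against agonist apical and agonist basal. The agonist basal comparison holds the side constant and the S1P apical comparison holds the compound and dose constant, and the 3 genes passed in both. At an unadjusted p under 0.05 the S1P apical comparison gave 491 genes (4.01%), the agonist apical one 489 (3.99%) and the agonist basal one 426 (3.48%).

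**Figure D2:**
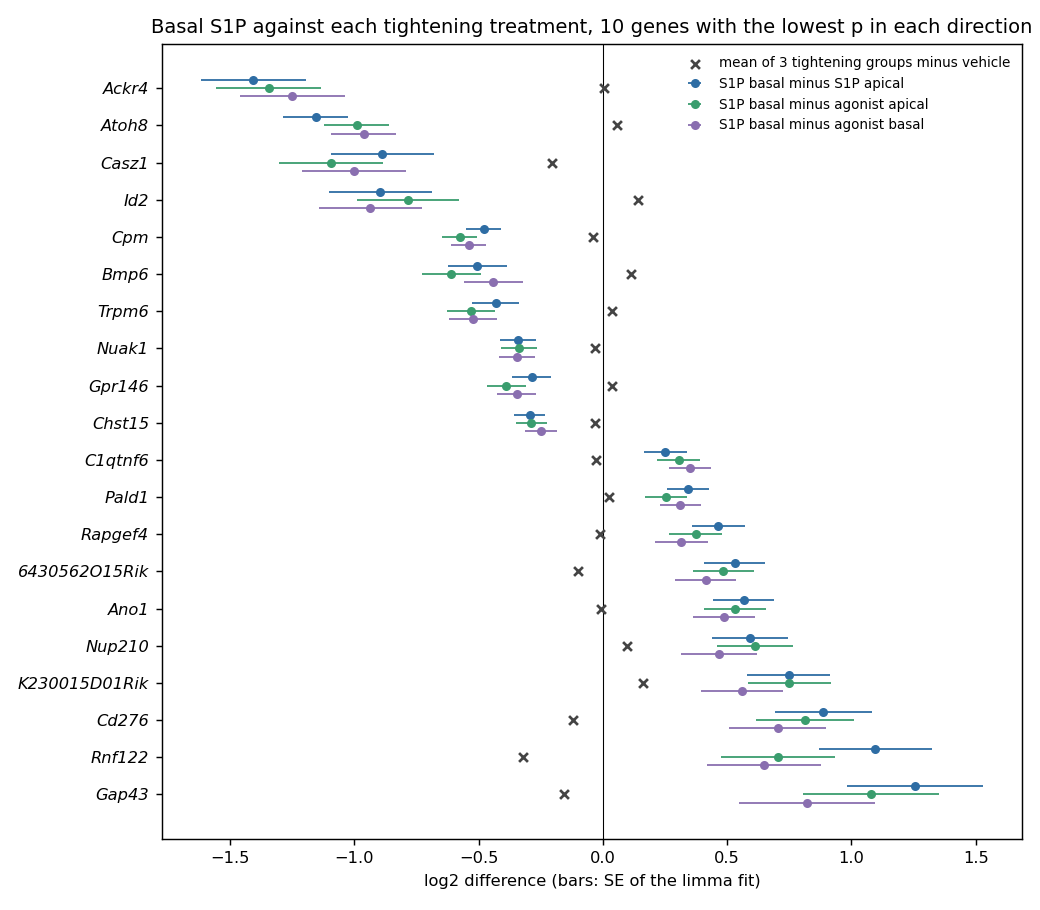
Log2 differences (horizontal axis) between S1P basal and each of the 3 tightening groups for the 10 genes with the lowest p in each direction, as dots with bars of 1 SE of the limma fit; crosses give the mean of the tightening groups minus vehicle. The 3 dots of each gene lie on the same side of 0, from -1.41 to -0.34 for the 6 called genes, which the choice of these genes by p favours.

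The promoters of these 3 genes, taken from RefSeq on GRCm38.p6 (mm10), are shown because the genes moved together against every tightening group. Each window runs from 250 bases before to 50 bases after the transcription start, 5′ to 3′ on the gene's strand. Capitals mark matches to the KLF box CACCC and the SMAD box CAGAC on either strand, which read GGGTG and GTCTG on the other strand. The windows are chr6:72235528-72235827 on the minus strand for Atoh8, chr10:117629250-117629549 on the plus strand for Cpm and chr9:104126594-104126893 on the minus strand for Ackr4.
Atoh8: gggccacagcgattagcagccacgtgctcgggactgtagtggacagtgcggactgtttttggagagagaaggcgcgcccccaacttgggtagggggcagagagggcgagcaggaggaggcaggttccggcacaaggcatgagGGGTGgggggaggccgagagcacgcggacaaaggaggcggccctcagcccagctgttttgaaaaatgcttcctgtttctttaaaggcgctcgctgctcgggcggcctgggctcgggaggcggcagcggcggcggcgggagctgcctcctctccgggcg
Cpm: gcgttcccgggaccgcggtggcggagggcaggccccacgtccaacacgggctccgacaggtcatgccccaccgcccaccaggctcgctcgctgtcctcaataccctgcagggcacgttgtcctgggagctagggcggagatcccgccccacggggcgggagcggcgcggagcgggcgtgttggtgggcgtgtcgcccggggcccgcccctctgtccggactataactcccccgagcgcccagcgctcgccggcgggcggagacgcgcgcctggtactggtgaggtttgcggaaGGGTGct
Ackr4: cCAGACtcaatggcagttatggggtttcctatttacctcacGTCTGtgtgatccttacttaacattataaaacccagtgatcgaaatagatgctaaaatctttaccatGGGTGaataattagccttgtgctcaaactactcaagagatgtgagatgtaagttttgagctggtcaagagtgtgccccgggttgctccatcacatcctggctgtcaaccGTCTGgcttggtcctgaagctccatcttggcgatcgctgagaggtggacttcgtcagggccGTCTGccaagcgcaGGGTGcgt
The Ackr4 window held 4 SMAD boxes, whereas the Atoh8 and Cpm windows held none. RefSeq gave 7 windows for the 6 called genes, since Casz1 has 2 starts. All 7 windows held a KLF box, which 57.5% of 32851 mouse promoters of the same length hold, and windows of 4 genes held a SMAD box (49.6% of promoters). The E-box CANNTG was found for 2 genes (72.3% of promoters), the BMP GC element GGCGCC for 1, Nuak1 (11.9%), and the AP-1 site TGANTCA for 0 (7.81%). These matches describe the letters in the windows and were not tested as binding sites.

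Trpm6 (ENSMUSG00000024727, chromosome 19 from 18749983 to 18892511 on the plus strand) encodes a magnesium-permeable channel joined to a kinase domain. It was at 550, 463, 623 and 609 normalized counts with S1P basal. The values were 670, 780, 755 and 812 with S1P apical, 825, 972, 744 and 708 with agonist apical and 830, 834, 776 and 766 with agonist basal. All S1P basal libraries lay below all tightening libraries. The mean was 561 ± 72.7 with S1P basal (SD, n = 4) and 789 ± 76.1 in the tightening libraries (SD, n = 12), a log2 difference of -0.49 ± 0.08 (SE; limma adjusted p = 0.0165). It passed in no single comparison (limma adjusted p = 0.272, 0.0841 and 0.104 against S1P apical, agonist apical and agonist basal). Without S1P basal replicate 1 the adjusted p was 0.0828, and without replicate 2 it was 0.0624. It was 0.0831 without S1P basal replicate 2 and S1P apical replicate 3, and 0.0865 without the 4 libraries unlike their number.

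Casz1 (ENSMUSG00000028977, chromosome 4 from 148804429 to 148954889 on the plus strand) encodes a zinc finger transcription factor that in frog embryos is needed for vessel assembly. It was at 49, 38, 74 and 58 normalized counts with S1P basal. The values were 116, 99, 74 and 114 with S1P apical, 124, 90, 106 and 146 with agonist apical and 93, 96, 106 and 141 with agonist basal. Here the groups met at 74, in S1P basal replicate 3 and S1P apical replicate 3. The mean was 54.8 ± 15.2 with S1P basal (SD, n = 4) and 109 ± 20.9 in the tightening libraries (SD, n = 12), a log2 difference of -0.99 ± 0.17 (SE; limma adjusted p = 0.0329). The call was lost without any single library of 11 (S1P basal 1, 2 and 4, S1P apical 1 and 2, agonist apical 1 and 4, agonist basal 3 and 4, vehicle 1 and 2), with adjusted p up to 0.112. Without the 4 libraries unlike their number it was 0.0917.

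Nuak1 (ENSMUSG00000020032, chromosome 10 from 84370905 to 84440597 on the minus strand) encodes a kinase of the AMPK-related family that acts on myosin phosphatase. It was at 371, 300, 390 and 355 normalized counts with S1P basal. The values were 443, 457, 451 and 438 with S1P apical, 501, 407, 432 and 446 with agonist apical and 453, 451, 444 and 445 with agonist basal. The ranges were separate, though 390 with S1P basal and 407 with agonist apical are close. The mean was 354 ± 38.7 with S1P basal (SD, n = 4) and 447 ± 21.4 in the tightening libraries (SD, n = 12), a log2 difference of -0.34 ± 0.06 (SE; limma adjusted p = 0.0329). The call was lost without any single library of 14 (S1P basal 1, 2 and 4, S1P apical 1 to 3, agonist apical 4, agonist basal 1 to 4, vehicle 1, 2 and 4), with adjusted p up to 0.117. Without the 4 libraries unlike their number it was 0.101.

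The 3 tightening treatments were also set against each other and against vehicle. Among themselves 0 genes passed (limma F test), with 52 at an unadjusted p under 0.05 (0.425%). Together against vehicle 0 genes passed (limma), with 71 at an unadjusted p under 0.05 (0.58%). The smallest unadjusted p against vehicle was that of Zbtb43, which encodes a zinc finger protein, at a log2 difference of -0.31 ± 0.10 (SE; limma adjusted p = 0.9999). For the 6 called genes the tightening mean minus the vehicle mean was 0.06 ± 0.11 for Atoh8, -0.04 ± 0.06 for Cpm and 0.01 ± 0.17 for Ackr4 (log2 ± SE). It was 0.04 ± 0.08 for Trpm6, -0.21 ± 0.17 for Casz1 and -0.03 ± 0.06 for Nuak1. S1P basal against vehicle gave 3 lower genes (0.0245%) and 0 higher, and these were Atoh8 at -0.98 ± 0.13, Cpm at -0.57 ± 0.07 and Ackr4 at -1.33 ± 0.21 (log2 ± SE; limma adjusted p = 0.00325, 0.00191 and 0.0225). Casz1, at -1.20 ± 0.21, had an adjusted p of 0.0523 there, and 640 genes had an unadjusted p under 0.05 (5.22%). Ackr4 lost its call against vehicle in 6 of the 20 fits that leave out 1 library (S1P basal 1, 3 or 4, vehicle 1, 2 or 4). With only these groups in the fit 0 genes were called, and without the 4 libraries unlike their number Bmp6 joined the 3 genes.

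Whether the difference between sides depended on the compound was tested directly, as S1P basal minus apical less agonist basal minus apical, and 0 genes passed (limma), with 183 at an unadjusted p under 0.05 (1.49%). The smallest p was that of Atoh8, at -1.13 ± 0.18 on the log2 scale (SE; limma adjusted p = 0.102). Without agonist apical replicate 1 it was the 1 gene called. The other 5 genes had values from -0.35 for Nuak1 to -1.31 for Ackr4, each with a limma adjusted p of 0.9997. Atoh8 and Ackr4 were both called lower in this term with replicate number added to the fit. Both were also called with library quality weights. The agonist itself gave basal minus apical differences of -0.03 for Atoh8, -0.04 for Cpm and -0.09 for Ackr4 (log2). Because S1P and agonist doses differ, compound and dose cannot be told apart in this term.

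**Figure D3:**
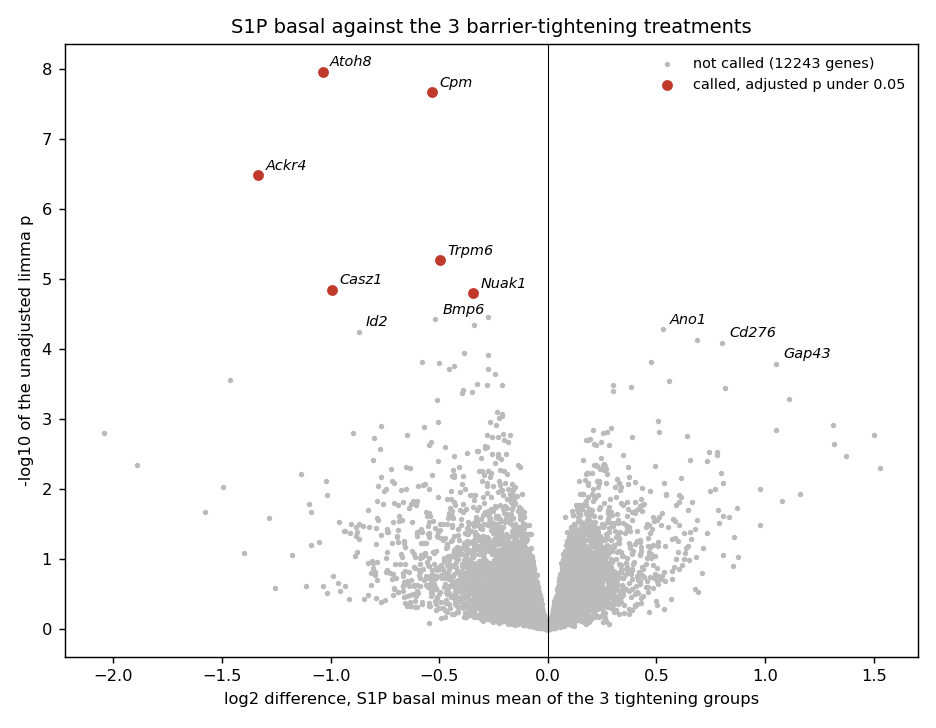
Log2 difference between S1P basal and the mean of the 3 tightening groups (horizontal axis) against -log10 of the unadjusted limma p (vertical axis) for the 12249 genes tested, with called genes in red. The 6 called genes all lie left of 0, and Ano1 has the smallest p right of it.

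Below the threshold, the next genes on the lower side were Chst15, Bmp6, Gpr146 and Id2, and on the higher side Ano1, K230015D01Rik and Cd276. Chst15, a sulfotransferase that modifies chondroitin sulfate, was at 359, 375, 318 and 355 normalized counts with S1P basal, against 382 to 453 in the tightening libraries with a median of 430.0 (log2 difference -0.28 ± 0.05 SE; limma adjusted p = 0.0579). Gpr146, an orphan receptor, was at 535, 530, 416 and 533 with S1P basal, against 561 to 688 in the tightening libraries with a median of 632 (-0.34 ± 0.06 SE; adjusted p = 0.0620). Both genes were on separate ranges. The adjusted p of Chst15 was 0.0374 without agonist basal replicate 2, and that of Gpr146 was 0.0449 without S1P apical replicate 4. Both were called lower with replicate number added to the fit (limma adjusted p = 0.00802 each).

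Bmp6, a BMP ligand made by endothelium, was at 602, 857, 612 and 637 normalized counts with S1P basal, against 805 to 1205 with a median of 938 in the tightening libraries (log2 difference -0.52 ± 0.10 SE; limma adjusted p = 0.0579). Replicate 2 alone reached the tightening range. It is 1 of the 4 libraries whose Xist did not match their number, and without it the difference was -0.64 and the adjusted p 0.00558. The adjusted p was also under the threshold, at 0.0395, without S1P apical replicate 1. Id2, a helix-loop-helix inhibitor and BMP target, was at 146, 113, 88 and 94 with S1P basal, against 141 to 250 with a median of 215 in the tightening libraries (-0.87 ± 0.17 SE; adjusted p = 0.0635). Its adjusted p was 0.0287 without S1P apical replicate 4 and 0.0472 without vehicle replicate 3. Bmp6 and Id2 were called lower with replicate number added to the fit (limma adjusted p = 0.00961 and 0.00213).

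Ano1, a calcium-activated chloride channel, was at 506, 481, 650 and 625 normalized counts with S1P basal, against 321 to 455 with a median of 380 in the tightening libraries (log2 difference 0.53 ± 0.10 SE; limma adjusted p = 0.0635, and 0.0449 without S1P apical replicate 4). All S1P basal libraries lay above all tightening libraries. Cd276, a surface protein of the B7 family, was at 199, 156, 157 and 213 with S1P basal, against 80 to 161 in the tightening libraries (0.80 ± 0.16 SE; adjusted p = 0.0771). The 161 is agonist apical replicate 4, and without it the adjusted p was 0.00697. Gap43, a growth-associated protein best known from neurons, was at 29, 25, 40 and 29 with S1P basal, against 7 to 22 in the tightening libraries (1.05 ± 0.22 SE; adjusted p = 0.104). Rapgef4, an exchange factor that cAMP activates on Rap, differed by 0.38 ± 0.09, and Rnf122, a ring finger ligase, by 0.82 ± 0.19 (adjusted p = 0.141 for both). Adding replicate number to the fit called Ano1, Cd276 and Gap43 higher (limma adjusted p = 0.000133, 0.00568 and 0.0237). It also called Rapgef4 and Rnf122 higher (0.0362 and 0.0177).

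**Figure D4:**
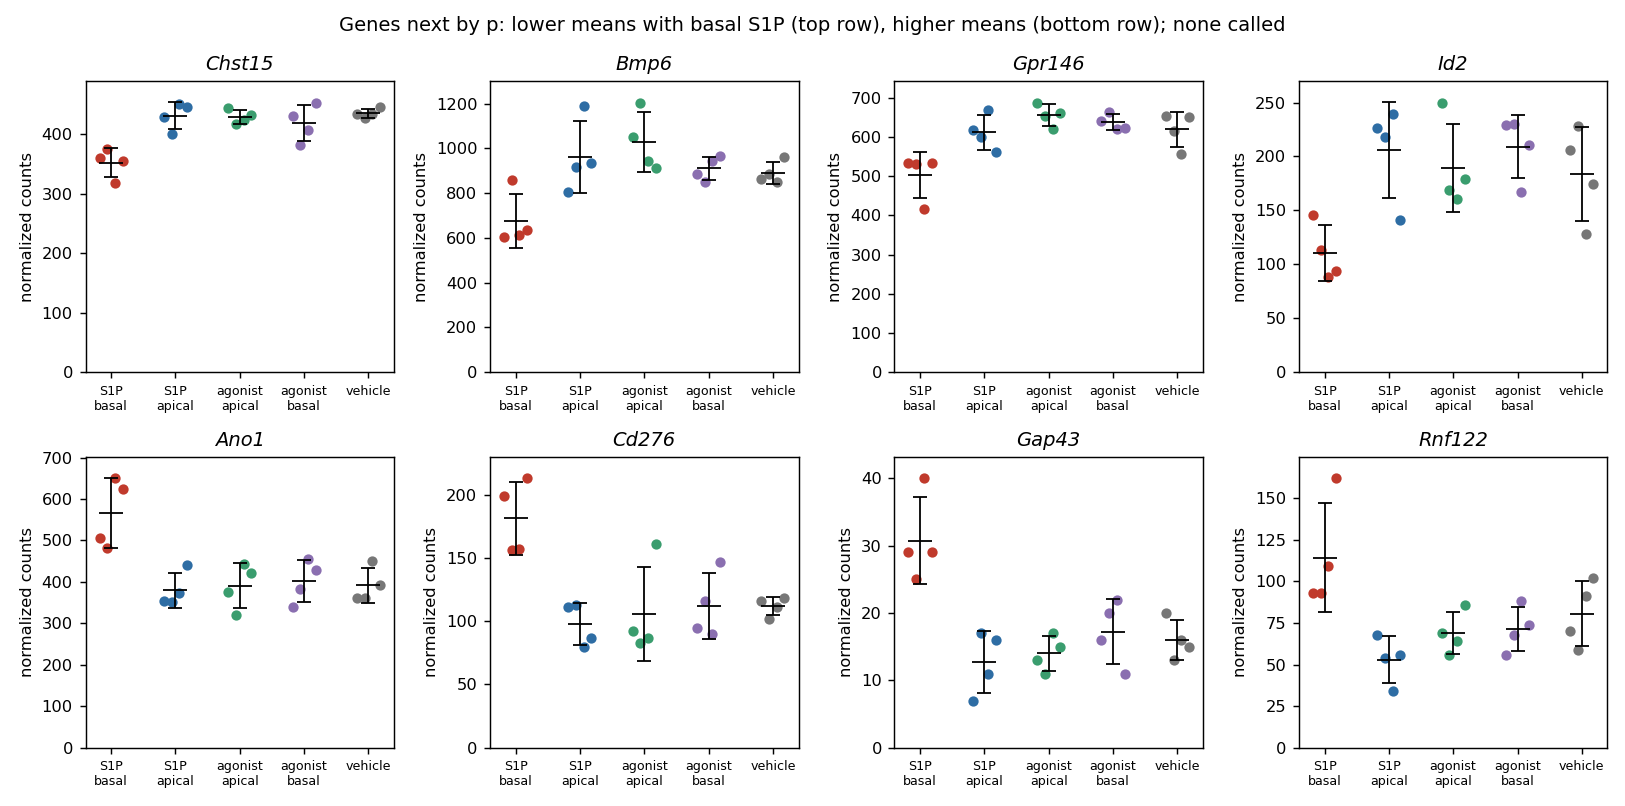
Normalized counts (vertical axes, from 0) by treatment group for 4 genes next to the threshold with lower means (top) and 4 with higher means (bottom); points are libraries, with the mean and SD of each group of 4. Ano1 is separate on the higher side, while Bmp6 has an S1P basal library at 857 inside the tightening range.

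Over all genes, the 4 S1P basal libraries lay below all 12 tightening libraries for 18 genes (0.147% of those tested) and above them for 13 (0.106%). Beside 5 of the called genes, the lower ones included Sult1a1, a phenol sulfotransferase, and Cbx7, a chromobox protein of Polycomb complexes, at -0.50 and -0.43 on the log2 scale. Plxna4, a semaphorin co-receptor, was at 642, 637, 620 and 662 normalized counts with S1P basal, against 672 to 965 in the tightening libraries, but vehicle replicate 3 was at 602. Among the higher ones was Idh2, the mitochondrial NADP isocitrate dehydrogenase, at 342, 325, 332 and 332 with S1P basal, against 272 to 318 in the tightening libraries. None of these passed the adjusted test by treatment group alone. Sult1a1, Cbx7 and Plxna4 were called lower with replicate number added to the fit (limma adjusted p = 0.00343, 0.00213 and 0.0453), while Idh2 was not called.

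Gene lists were described by counts and medians, beside a median log2 difference of 0.00342 and a lower mean in 48.8% of all genes tested. Of 47 lists, 41 held 0 called members, and each of the other 6 held 1. Calls of list members are by treatment group alone unless another fit is named. Adding replicate number to the fit called further genes named below, such as Gata2 and Acer2 lower and Piezo2 higher. The list of BMP targets and inhibitors held Atoh8. Its summed level was 2795, 2796, 2779 and 2617 normalized counts with S1P basal, against 3048 to 3604 in the tightening libraries and 2962 to 3275 with vehicle, without overlap. Atoh8 is part of this sum and of the counts that follow, and the sum without Atoh8 was not computed. Of 11 tested members 9 had a lower mean, with a median of -0.22, and 4 an unadjusted p under 0.05, all lower. Gata2, a transcription factor, was at 550, 489, 525 and 460 with S1P basal, against 545 to 646 in the tightening libraries (-0.22 ± 0.06 SE; limma adjusted p = 0.290). Of 14 BMP ligands and receptors 11 had a lower mean (median -0.14) and 0 were called. Bmp2, a second ligand, had a higher mean, at 316, 221, 655 and 726 with S1P basal against 147 to 382 (0.77 ± 0.27 SE; adjusted p = 0.632), with replicates 3 and 4 above all tightening libraries. Of 17 TGF-beta genes 8 were lower (median 0.01).

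Of the 10 tested carboxypeptidase and kinin system genes all had a lower mean (median -0.17), but Cpm was the only call and the only member with an unadjusted p under 0.05. Bdkrb2, the kinin B2 receptor, was at 36, 29, 74 and 90 normalized counts with S1P basal, against 45 to 166 in the tightening libraries (log2 difference -0.72 ± 0.36 SE; limma adjusted p = 0.900). Of 6 tested chemokine receptors 4 were lower, Ackr4 among them, and of 12 chemokines and cytokines 10 (median -0.17, 0 called). Of 20 magnesium and TRP channel genes 9 were lower, with Trpm6 the call. Piezo2, a mechanically gated channel, was at 133, 48, 50 and 72 with S1P basal against 26 to 51 (0.78 ± 0.23 SE; adjusted p = 0.422). Of 21 AMPK-related kinases 14 were lower (median -0.02, Nuak1 called), and of 5 genes listed with Casz1 3 were lower.

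The receptors of S1P did not pass the test. The log2 difference was 0.04 ± 0.11 (SE) for S1pr1, 0.10 ± 0.16 for S1pr2, -0.34 ± 0.72 for S1pr3 and -0.04 ± 0.13 for S1pr4. S1pr4, the agonist's target, was at 114, 160, 161 and 144 normalized counts with S1P basal, inside the tightening range of 113 to 190. Among 12 genes that make, degrade or move S1P, 7 were lower and 0 called. The S1P exporter gene Spns2, named after its values were seen, had a difference of -0.22 ± 0.10 (SE; limma adjusted p = 0.835), and without S1P basal replicate 2 and S1P apical replicate 3 it fell by 0.35 on the log2 scale (adjusted p = 0.0434). Acer2, a Golgi ceramidase whose product feeds S1P synthesis, was at 698, 573, 389 and 622 with S1P basal, against 645 to 1026 in the tightening libraries (-0.57 ± 0.15 SE; limma adjusted p = 0.334). Mfsd2a, a lipid transporter that limits vesicular transport at the blood-brain barrier, was at 35, 49, 64 and 62 against 19 to 44 (0.60 ± 0.22 SE; adjusted p = 0.670).

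No gene of the junctions, of vesicular transport or of the efflux pumps passed the test by treatment group alone. Of 21 tight junction genes 14 had a lower mean (median log2 difference -0.01), of 20 adherens junction genes 7 (median 0.04) and of 22 caveolae and vesicular transport genes 8 (median 0.01). Ocln, which encodes the tight junction protein occludin, was at 1021, 1111, 887 and 1011 normalized counts with S1P basal, against 989 to 1167 (-0.13 ± 0.05 SE; limma adjusted p = 0.792). Jup, which encodes plakoglobin, was at 1490, 1572, 1609 and 1860 against 1231 to 1706 (0.26 ± 0.08 SE; adjusted p = 0.503). The differences of both genes are small beside their ranges, which overlap. With replicate number added to the fit, Jup was called higher (log2 difference 0.26, limma adjusted p = 0.00802) and Ocln was not called. Of 10 ABC efflux pumps 7 were lower (median -0.15), 4 of them at an unadjusted p under 0.05. Abcc4 was at 1170, 1058, 972 and 1194 against 1127 to 1388 (-0.21 ± 0.06 SE; adjusted p = 0.461), and Abcb1a, the P-glycoprotein, at 1237, 1118, 1120 and 1306 against 1175 to 1464 (-0.14 ± 0.06 SE; adjusted p = 0.840). Of 23 solute carriers 14 were lower (median -0.02). The organic anion transporter gene Slco1a4 was at 898, 835, 492 and 855 against 774 to 1265 (-0.43 ± 0.16 SE; adjusted p = 0.738).

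Of 25 Wnt and beta-catenin genes, whose pathway maintains the brain barrier, 17 had a lower mean (median log2 difference -0.06, 0 called). Foxf2, a forkhead factor of brain vessels, was at 398, 392, 424 and 403 normalized counts with S1P basal, against 423 to 520 in the tightening libraries (-0.20 ± 0.06 SE; limma adjusted p = 0.352). Reck, a co-receptor for Wnt7, differed by -0.28. Of 20 Notch genes 11, of 19 VEGF and angiopoietin genes 9, of 18 shear-responsive genes 12 and of 26 endothelial markers 20 were lower, with medians of -0.04, 0.00, -0.14 and -0.02. Among 24 targets of MRTF and SRF 9 were lower and among 21 YAP and TAZ genes 16, with medians of 0.02 and -0.05. None of these lists had a called member by treatment group alone. Reck was called lower with replicate number added to the fit (limma adjusted p = 0.0106).

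Of 45 interferon response genes, 39 had a lower mean (median log2 difference -0.19), 8 had an unadjusted p under 0.05, all lower, and 0 were called by treatment group alone. The number lower was 29 against S1P apical, 43 against agonist apical and 39 against agonist basal, comparisons that share the S1P basal libraries and in which 49.8%, 48.9% and 49.1% of all genes were lower. Gbp5, a guanylate-binding protein, was at 361, 215, 193 and 274 normalized counts with S1P basal, against 285 to 606 in the tightening libraries (-0.77 ± 0.20 SE; limma adjusted p = 0.328). The summed list was at 11444, 9716, 10622 and 12957 with S1P basal and spanned 10691 to 17671 in the tightening libraries, the highest being agonist apical replicate 4. Of 24 NF-kB targets and adhesion genes 18 were lower (median -0.13, 0 called). Icam1, the leukocyte adhesion molecule, was at 690, 676, 828 and 631 against 795 to 1130 (-0.40 ± 0.09 SE; adjusted p = 0.151), with 3 of the S1P basal libraries below all 12. Cd40, a co-stimulatory receptor, was at 99, 124, 127 and 140 against 60 to 112 (0.49 ± 0.15 SE; adjusted p = 0.503). Adding replicate number to the fit called Gbp5 and Icam1 lower and Cd40 higher (limma adjusted p = 0.00163, 0.00213 and 0.041). Of 19 MHC class I genes 14 were lower (median -0.07).

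**Figure D5:**
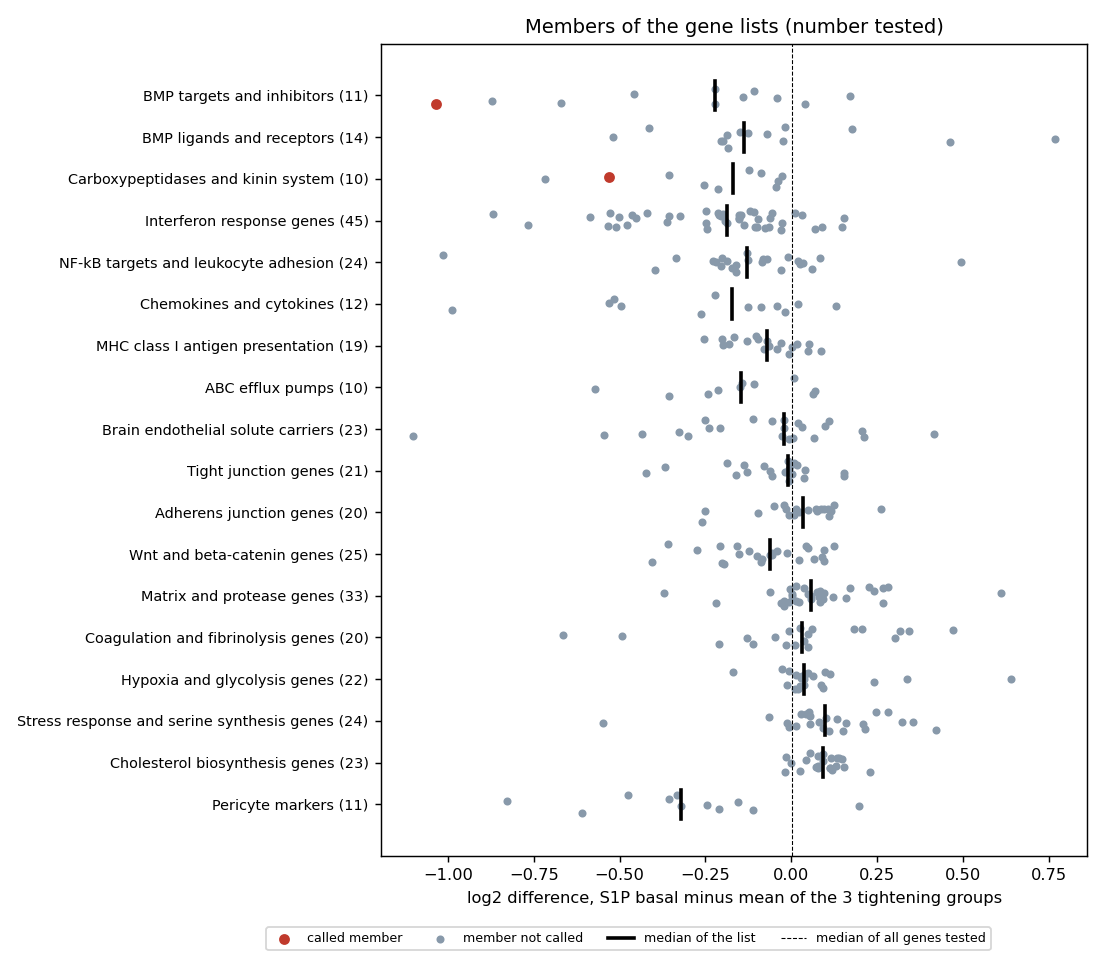
Log2 difference between S1P basal and the mean of the tightening groups (horizontal axis) for the tested members of a selection of the gene lists (rows); dots are genes, red where called, short bars the list medians and the dashed line the median of all genes tested. Pericyte markers, interferon response genes and BMP targets have medians left of the line, at -0.32, -0.19 and -0.22, and stress response and cholesterol genes right of it, at 0.10 and 0.09.

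Other lists mostly had higher means with S1P basal, again with 0 called members. Of 23 cholesterol biosynthesis genes 21 had a higher mean (median log2 difference 0.09), but 0 had an unadjusted p under 0.05. The counts were 20 of 24 for stress response and serine synthesis genes (median 0.10), 18 of 22 for hypoxia and glycolysis genes (0.04), 27 of 30 for oxidative phosphorylation genes (0.06) and 31 of 39 for cytosolic ribosomal proteins (0.02). Car9, a hypoxia-induced carbonic anhydrase, was at 28, 29, 35 and 31 normalized counts with S1P basal, above 14 to 24 in the tightening libraries (0.64 ± 0.18 SE; limma adjusted p = 0.344). Of 33 matrix and protease genes 25 were higher (median 0.06). Adamts4, a proteoglycan-cleaving protease, was at 683, 331, 634 and 831 against 180 to 546 (0.61 ± 0.20 SE; adjusted p = 0.576). Without S1P basal replicate 2 and S1P apical replicate 3 it rose, at 0.80 with an adjusted p of 0.00818, and without the 4 libraries unlike their number the values were 0.77 and 0.0384. Of 20 coagulation genes 12 were higher, of 15 Nrf2 targets 9 and of 26 cell cycle genes 14, with medians of 0.03, 0.01 and 0.03.

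Markers of other vascular cells mostly had lower means with S1P basal than over the tightening groups together, but not against each group. Of 11 pericyte markers 10 had a lower mean (median log2 difference -0.32), of 11 smooth muscle markers 9 (median -0.27), of 8 fibroblast markers 8 (median -0.23) and of 3 microglia and macrophage markers 3 (median -0.49), with 0 called in each. Against S1P apical, agonist apical and agonist basal taken singly, 10, 8 and 6 pericyte markers were lower (medians -0.75, -0.10 and -0.12), and 9, 8 and 4 smooth muscle markers (medians -0.41, -0.08 and 0.14). Fibroblast markers were lower in 8, 6 and 5 cases (medians -0.54, -0.07 and -0.23). Against vehicle 8 pericyte, 5 smooth muscle and 7 fibroblast markers were lower (medians -0.37, 0.01 and -0.39). The summed pericyte list was at 4115, 3524, 2920 and 2274 normalized counts in S1P basal replicates 1 to 4, inside the tightening range of 2120 to 4523. The summed smooth muscle list ranged from 4129 to 5474 with S1P basal and from 4236 to 5870 in the tightening libraries. The fibroblast list was at 1143, 893, 327 and 375 in S1P basal replicates 1 to 4. It was at 1490, 1332, 1084 and 293 with S1P apical. With the agonist it was at 1195, 1304, 269 and 423 (apical) and at 1275, 1267, 294 and 383 (basal). S1P apical replicates 3 and 4, S1P basal replicate 2 and agonist apical replicate 2 are the 4 libraries unlike their number by Xist. The marker lists were not compared without them, and their part in these differences was not tested. Microglia and macrophage markers summed to 41 to 130 with S1P basal and 47 to 195 in the tightening libraries. Of 9 large-vessel markers 8 were lower (median -0.22), as were 2 of 3 lymphatic, 1 of 3 astrocyte, 1 of 2 neuron, 2 of 4 ependymal and 0 of 1 oligodendrocyte markers, while 0 erythroid markers were tested. The defining markers Cx3cr1, Gfap, Aqp4 and Mbp stayed between 0 and 5 in every library. The part of these cells in the lower genes and lists was not tested.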

How the data were processed

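Per the submitters' processing notes, the tools were STAR 2.7.3a, Trimmomatic 0.38, FastQC, DESeq2 1.26.0 and featureCounts 1.6.5 (Subread), on the mm10 build, with no role or order given. The libraries used a stranded mRNA kit, per the labels' protocols. The authors deposited a signal per gene: as the values show, these are counts of each gene, scaled by library and rounded, called normalized counts here. The highest value in the wild-type table was 8346, and fold changes of abundant genes may be understated. Rounding kept the reads from being recovered, so no count model or counting interval is given.

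Genes whose mean over the 20 wild-type libraries reached 10 were fitted on log2(value + 1), which understates changes of low genes. The fit, in limma 3.58.1 under R 4.3.3, had 5 group means with a mean-dependent prior variance, Benjamini-Hochberg adjustment over the 12249 genes and calls at an adjusted p under 0.05. The test was tested on simulated data with independent noise in each library. Those data held no differences between replicate numbers, so the simulation does not cover them. The design named limma for normalized values.

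Named were all called genes, those with the 10 lowest p per direction, S1P receptors, up to 4 members per list by p, genes of other comparisons, and genes with a mean of at least 100 on separate ranges, up to 8 per direction. The members and the 47 lists were chosen with earlier results of these data known. The result of 1 list is not reported here. Promoters are RefSeq's.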

Additional observations from a re-analysis of the deposited data

Results flagged for a closer look

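Libraries far from the others of their group were looked for in 20 genes and 5 groups, the 6 called genes among them. In 5 of 100 groups of 4, the highest or lowest library lay farther from its nearest neighbour than Dixon's critical value allows, and chance flags about 1 in 20 groups. Bmp6 was at 857 normalized counts in S1P basal replicate 2, against 602 to 637 in the other S1P basal libraries. Gpr146 was at 416 in S1P basal replicate 3, against 530 to 535. C1qtnf6, a secreted protein related to C1q and TNF, was at 363 in S1P basal replicate 1, against 393 to 394, and at 282 in vehicle replicate 2, against 328 to 337. Cd276 was at 161 in agonist apical replicate 4, against 83 to 92. None of these groups belonged to the 6 called genes.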

How the results depend on the processing

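Atoh8, Cpm and Ackr4 were called lower against the tightening treatments in all 35 alternatives tried, Trpm6 in 30, Casz1 in 21 and Nuak1 in 16, and no examined gene changed direction. Leaving out 1 library at a time gave 3 to 8 lower calls and 0 to 1 higher. It gave 1 to 3 lower against S1P apical, 2 to 5 lower and 0 to 1 higher against agonist apical, 2 to 3 lower against agonist basal, 2 to 4 lower against vehicle and 0 to 1 lower in the interaction.

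The replicate numbers were not taken to pair the libraries: same-numbered libraries correlated from -0.345 to 0.805 over 40 pairs, with a median of 0.609 and 36 over 0.1, against a median of -0.26 between numbers, and 16 of 20 libraries correlated best with their own number. Without the 4 libraries unlike their number all 25 pairs were over 0.1, from 0.556 to 0.805. With the replicate block the tightening comparison gave 71 lower calls, all 6 reported genes among them, and 66 higher. It gave 30 lower and 53 higher against S1P apical, 31 and 12 against agonist apical, 14 and 4 against agonist basal, 32 and 15 against vehicle, and 2 lower in the interaction. With the block as a random effect the counts were 67 lower and 39 higher, then 12 and 17, 28 and 9, 14 and 3, 13 and 2, and 2 lower in the interaction. With the block and without the 4 libraries unlike their number, chosen after seeing the data, they were 367 and 303, 145 and 126, 305 and 207, 224 and 146, 284 and 228, and 18 and 3.

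With library quality weights the tightening comparison gave 20 lower and 7 higher, agonist apical 7 and 1, vehicle 11 and 2, and the interaction 2 lower. With only the groups compared in the fit, and so fewer libraries, it gave 3 lower, and 1, 0, 0 and 0 against S1P apical, agonist apical, agonist basal and vehicle. Less S1P basal 2 and S1P apical 3 it gave 1 higher, and 1 lower against S1P apical and 5 lower against agonist apical. Without all 4 libraries it gave 1 higher, and 0 lower against S1P apical. With 1 prior variance for all genes it gave 1 higher, K230015D01Rik, as did vehicle. The cause of these changes was not tested. Rescaling moved the median of all genes by 0.00476 or 0.00563. The S1P receptors were the 1 list of 44 whose median changed sign. Genes near 0 and small differences of abundant genes are limited by rounding and by the authors' scaling.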
